A study of Drosophila melanogaster with 10 samples.

Results

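Wing imaginal disks expressing NkdΔR1S, a form of Naked cuticle (Nkd) without the stretch that binds Dishevelled (Dsh), were compared with disks expressing full-length Nkd. The comparison used 4 of the 10 RNA-seq libraries of the series, replicates 1 and 2 of each form, which were taken by their labels. Full-length Nkd disks had the genotype MS1096 > Nkd_GFPC and NkdΔR1S disks the genotype MS1096 > Nkd_del_R1S_GFPC, and both proteins carry a GFP tag. Control disks of the genotype MS1096 > GFP, and disks of 2 further groups whose Nkd lacks other regions, NkdΔ30aa (MS1096 > Nkd_del_30aa_GFPC) and NkdΔD6 (MS1096 > Nkd_del_D6_GFPC), are given beside the comparison as a description. All larvae carried MS1096-Gal4, a driver active mainly in the wing pouch, were reared at 25 °C and had reached the third larval instar (late), and about 70 disks were pooled for each sample. The UAS-Nkd lines, of insertion sites not given in the sources used here, had been outcrossed to 1 background. The samples of a group are described as biological duplicates without a statement that they came from separate crosses, so p-values measure the spread between these samples, which may be partly technical.

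Wingless (Wg), the founding fly Wnt, is made along the dorsal-ventral boundary of the wing pouch and directs growth and the formation of the wing margin. Its receptors Frizzled and Arrow act through Dsh to stabilize Armadillo, which works with the factor Pangolin in the nucleus. Nkd is produced in response to Wg, binds Dsh and dampens the pathway as a negative feedback regulator. The comparison asks which transcripts of the disk differ when the expressed Nkd cannot bind Dsh through this region.

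The expressed gene itself was measured first, because it shows whether disks labelled with a Nkd form held more nkd than GFP disks. A count per gene cannot show which region of Nkd is deleted. Normalized nkd levels were 1141 and 1190 CPM (TMM-normalized counts scaled to library size) in the Nkd libraries and 345 and 512 CPM in the NkdΔR1S libraries. GFP disks, which have only the endogenous gene, held 37.3 and 70.1 CPM. Both Nkd forms were thus far above the control in both libraries, but the NkdΔR1S libraries lay below the Nkd libraries without overlap. The log2 fold change between NkdΔR1S and Nkd was -1.44 (SE 0.32), a mean of 36.8% of the full-length level, and was not called by edgeR's quasi-likelihood test (Benjamini-Hochberg adjusted p = 0.115). It was called by DESeq2, with an adjusted p of 0.00773 on all libraries and 3.20e-09 on the 4 libraries of the comparison. Against GFP, the log2 fold change of nkd was 3.00 (SE 0.34, edgeR adjusted p = 0.0292) for NkdΔR1S and 4.44 (SE 0.37, adjusted p = 0.00696) for Nkd. NkdΔ30aa disks, at 1176 and 1498 CPM, and NkdΔD6 disks, at 1349 and 993 CPM, were near the full-length level. The gene count sums transgene and endogenous nkd, so a difference caused by the missing region and a difference caused by less transgene RNA cannot be told apart in any result given here. The locus lies on chromosome 3L, 19003741 to 19045449 (BDGP6). The levels of Bx, the gene in which the MS1096 insertion lies, were 19.4 and 20.7 CPM in NkdΔR1S disks and 22.3 and 24.9 CPM in Nkd disks, with a log2 fold change of -0.24 (SE 0.18, adjusted p = 0.562).

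**Figure D1:**
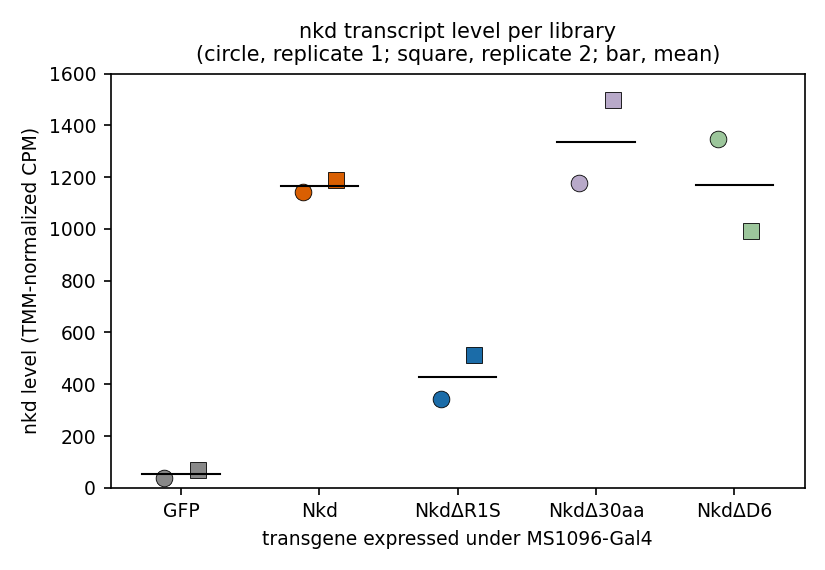
TMM-normalized nkd level (CPM, linear axis from 0) in each of the 10 libraries, by the transgene expressed. Circles are replicate 1, squares replicate 2 and bars the mean of a group. The NkdΔR1S libraries, at 345 and 512 CPM, sit between the GFP libraries and those of every other Nkd form.

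Nkd replicate 1 held many transcripts of other tissues. The summed level of 16 salivary gland genes reached 16623 CPM there and 207 CPM in the second Nkd library, while the NkdΔR1S libraries held 226 and 58.4 CPM and the GFP libraries 5270 and 664 CPM. The most abundant, the glue protein gene Sgs7, had 5180 and 56.8 CPM in Nkd disks and 56.1 and 17.1 CPM in NkdΔR1S disks. A list of 35 gut genes summed to 5083 and 49.0 CPM in Nkd disks against 814 and 120 CPM in NkdΔR1S disks, and 15 fat body genes to 3488 and 798 CPM against 1253 and 2030 CPM. The GFP libraries held 687 and 2094 CPM of the gut list and 3315 and 997 CPM of the fat body list. In NkdΔD6 replicate 2 these lists reached 2252 and 2379 CPM. Transcripts of gut and fat body were thus not confined to Nkd replicate 1. The 13 wing pouch genes, by contrast, summed to 1136 and 1223 CPM in Nkd disks and 997 and 1200 CPM in NkdΔR1S disks, and all 13 were expressed enough to be tested.

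**Figure D2:**
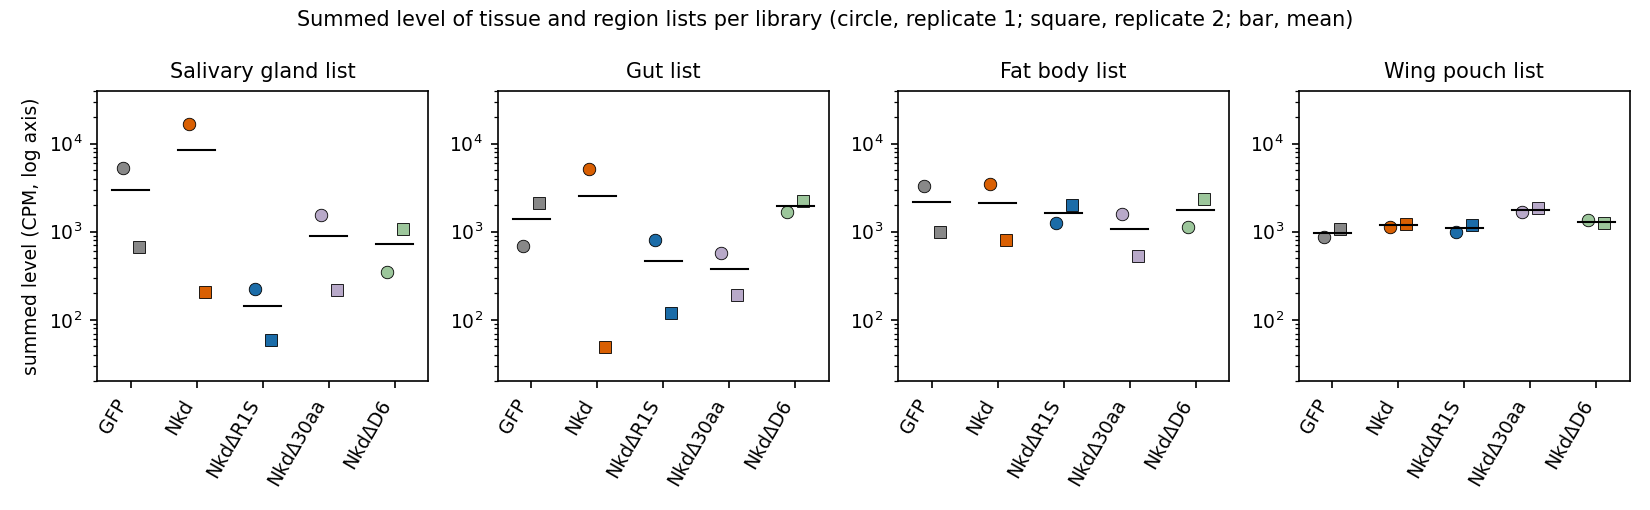
Summed TMM-normalized level (CPM, log axis) of the salivary gland, gut, fat body and wing pouch lists in each library, with circles for replicate 1, squares for replicate 2 and bars for group means. Nkd replicate 1 is the highest library for salivary gland (16623 CPM) and gut (5083 CPM) genes, while the wing pouch list lies between 997 and 1223 CPM in the 4 compared libraries.

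Of 9264 genes tested, 12 were higher and 5 lower in NkdΔR1S than in Nkd disks (edgeR, fold change over 1.5 and adjusted p under 0.05), or 0.13% and 0.054% of the genes, together 0.184%. The genes with higher levels in NkdΔR1S disks included GstD1, a glutathione S-transferase, krimp, which encodes a Tudor domain protein of the piRNA pathway, and boca, whose product is a chaperone of LDL receptor family proteins such as Arrow. Those with lower levels included GstD9, another glutathione S-transferase, and the receptor gene Ir76a. Without the fold threshold the same counts were obtained, and at an unadjusted p under 0.05 with that fold change 310 genes were higher and 127 lower, or 3.35% and 1.37%. DESeq2 on the 4 libraries called 100 genes higher and 31 lower, or 1.14% and 0.352% of the 8808 with an adjusted p, and all 17 genes called by edgeR were among them. An adjusted p under 0.1 in edgeR was reached by 129 genes, the 17 included, of which 89 had a fold change over 1.5. Leaving out a library of the NkdΔR1S group changed the counts to 4 higher and 2 lower (replicate 1 left out) or 26 and 6 (replicate 2 left out). Leaving out one of the Nkd group gave 1 and 2 (replicate 1 left out) or 1 and 5 (replicate 2 left out). CG14715, CG7900 and GstD9 were called in all 4 of these fits, and they were the only ones of the 17 called without Nkd replicate 1 or without Nkd replicate 2. The test on the 4 libraries alone called 0 genes (edgeR, with 205 higher and 96 lower at an unadjusted p under 0.05 and a fold change over 1.5). The direction of all 17 genes was kept under all 13 alternative fits.

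Of the 14 salivary gland genes tested, 13 had a negative log2 fold change and edgeR called none (with unadjusted p under 0.05 and the fold change 3 were lower, and DESeq2 on the 4 libraries called 1 lower). Of all genes, 1.37% and 0.352% were lower by these criteria. The median of the 14 genes was -5.46, and -0.36 without Nkd replicate 1. With the salivary gland list left out of normalization and tests, 10 genes were higher and 5 lower, 15 of them among the 17.

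The most extreme difference among the called genes was that of CG7900 (chromosome 3R, 8094124 to 8105083). Its level was 0.395 and 0.256 CPM in NkdΔR1S disks and 14.0 and 13.5 CPM in Nkd disks. GFP disks held 17.8 and 18.0 CPM, NkdΔ30aa disks 7.34 and 7.53 CPM and NkdΔD6 disks 13.3 and 12.9 CPM. The NkdΔR1S libraries were thus the lowest of the 10, with a log2 fold change against Nkd of -5.38 (SE 0.23, edgeR adjusted p = 4.96e-05). The NkdΔ30aa libraries were the next lowest, with a log2 fold change against Nkd of -0.88 (SE 0.18, edgeR adjusted p = 0.0329).

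CG14715 (chromosome 3R, 11674221 to 11674923) showed the opposite arrangement. Levels of 65.0 and 52.2 CPM in NkdΔR1S disks, 61.3 and 55.2 CPM in GFP disks and 38.9 to 41.6 CPM in the other mutant forms contrasted with 14.8 and 14.7 CPM in Nkd disks. Here it was the full-length libraries that stood apart from all others. The log2 fold change was 1.99 (SE 0.13, edgeR adjusted p = 0.000726). The receptor gene mthl8, of the Methuselah-like family, was likewise lowest in the Nkd libraries, with 17.2 and 15.4 CPM against 32.6 and 36.9 CPM in NkdΔR1S and 41.7 and 42.1 CPM in GFP disks (log2 fold change 1.10, SE 0.11, adjusted p = 0.0154).

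CG32055 (chromosome 3L, 10218504 to 10220164) was high in the NkdΔR1S libraries alone, at 12.03 and 14.8 CPM. Nkd disks held 0.794 and 0.829 CPM, GFP disks 1.94 and 3.50 CPM, and the other 4 libraries between 0.206 and 1.73 CPM. The log2 fold change was 4.04 (SE 0.40, edgeR adjusted p = 0.0140). Expression of krimp was instead split across the groups. It reached 48.3 and 27.8 CPM in NkdΔR1S disks and 40.8 and 44.3 CPM in GFP disks, but only 5.51 and 6.39 CPM in Nkd disks and 2.80 to 4.08 CPM in NkdΔ30aa and NkdΔD6 disks (log2 fold change against Nkd 2.68, SE 0.28, adjusted p = 0.0154). Of the 24 piRNA pathway genes tested, krimp was the only one called by edgeR, while DESeq2 on the 4 libraries called 2 higher and 0 lower. With unadjusted p under 0.05 and the fold change, 2 were higher and 2 lower. Of all genes, edgeR called 0.13% higher, and DESeq2 called 1.14% higher and 0.352% lower. By the unadjusted criterion 3.35% of all genes were higher and 1.37% lower. The median log2 fold change of the list was 0.02.

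The neighbouring genes GstD9 and GstD1, which lie 252 bases apart on the same strand of chromosome 3R, moved in opposite directions. GstD9 was at 18.2 and 15.9 CPM in NkdΔR1S disks and at 67.4 and 68.9 CPM in Nkd disks, with 23.1 to 31.8 CPM in the other 6 libraries. GstD9 was therefore highest in both Nkd libraries and lowest in both NkdΔR1S libraries of all 10, with a log2 fold change of -1.999 (SE 0.16, edgeR adjusted p = 0.00322). GstD1 was at 2131 and 1822 CPM in NkdΔR1S disks and at 1020 and 1012 CPM in Nkd disks, against 1802 and 1434 CPM in GFP disks (log2 fold change 0.96, SE 0.13, adjusted p = 0.0418). In the other forms GstD1 was at 983 and 1017 CPM (NkdΔ30aa) and 1407 and 1232 CPM (NkdΔD6). Another abundant gene of the cluster, GstD3, had 152 and 123 CPM in NkdΔR1S and 64.8 and 68.6 CPM in Nkd disks, a difference that edgeR did not call (1.04, SE 0.23, adjusted p = 0.107) and DESeq2 called (adjusted p = 1.79e-06 on the 4 libraries). GstD3 varied widely elsewhere, with 97.9 and 70.4 CPM in GFP, 4.85 and 7.81 CPM in NkdΔ30aa and 27.65 and 23.2 CPM in NkdΔD6 disks. Of the 10 GstD genes 6 were tested, and these are paralogs of similar sequence, so reads may have been divided between them in counting. Over the wider list of glutathione S-transferases and cytochrome P450s, edgeR called 1 of 39 tested genes higher and 1 lower, against 0.13% and 0.054% of all genes. DESeq2 on the 4 libraries called 2 higher and 1 lower, and 5 were higher and 2 lower with unadjusted p under 0.05 and the fold change. Of all genes, 1.14% and 0.352% were higher and lower by DESeq2, and 3.35% and 1.37% by the unadjusted criterion.

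The other 7 genes called higher differed by smaller amounts. SelG, a selenoprotein gene, was at 129.2 and 128.9 CPM in NkdΔR1S disks and at 75.7 and 75.9 CPM in Nkd disks (log2 fold change 0.77, SE 0.09, edgeR adjusted p = 0.0207). For pst (pastrel), known for its role in resistance to viruses, levels were 114 and 108 CPM against 64.1 and 59.7 CPM (0.84, SE 0.10, adjusted p = 0.0209). Both genes had their 2 highest libraries in the NkdΔR1S group. The same held for Acbp1, an acyl-CoA binding protein gene, with 124 and 127 CPM against 73.9 and 76.1 CPM (0.74, SE 0.09, adjusted p = 0.0209), and for boca, with 179 and 166 CPM against 107.8 and 107.6 CPM (0.68, SE 0.09, adjusted p = 0.0418). UQCR-6.4, a subunit gene of mitochondrial complex III, had 78.8 and 78.0 CPM against 46.2 and 43.2 CPM (0.81, SE 0.10, adjusted p = 0.0225), but 40.5% of its exon length is overlapped by a gene on the other strand, and whether the counting used strand is unknown from the sources used here. CG3434 had 54.9 and 49.8 CPM against 28.6 and 31.0 CPM (0.81, SE 0.11, adjusted p = 0.0419). CG6321 had a low level, at 11.6 and 10.8 CPM against 4.22 and 4.44 CPM (1.38, SE 0.19, adjusted p = 0.0418), with 14.0% of its exon length overlapped from the other strand. In CG3434 and CG6321 the NkdΔR1S libraries were the highest and the Nkd libraries the lowest of all 10. For all 7 genes the GFP libraries lay between the compared groups. They were near the NkdΔR1S level for boca, at 155 and 164 CPM, and for UQCR-6.4, at 76.2 and 68.4 CPM. The NkdΔ30aa and NkdΔD6 libraries were nearer the Nkd level for boca (99.4 to 120 CPM) and UQCR-6.4 (34.3 to 54.1 CPM).

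Among the 3 remaining genes called lower, Ir76a, a member of the ionotropic receptor family, was lowest in the NkdΔR1S libraries, with 4.91 and 6.03 CPM against 12.6 and 12.8 CPM in Nkd disks (log2 fold change -1.21, SE 0.17, edgeR adjusted p = 0.0419, 14.1% of exon length overlapped from the other strand). CG32373 fell from 63.3 and 68.5 CPM in Nkd disks to 27.7 and 22.4 CPM in NkdΔR1S disks (-1.40, SE 0.15, adjusted p = 0.0169), and NkdΔ30aa disks were as low, at 21.5 and 23.6 CPM. CG43897 fell from 16.6 and 15.55 CPM to 6.10 and 5.57 CPM (-1.46, SE 0.17, adjusted p = 0.0209), again with low NkdΔ30aa libraries at 6.001 and 4.74 CPM. For both genes GFP and NkdΔD6 disks were closer to the Nkd level.

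**Figure D3:**
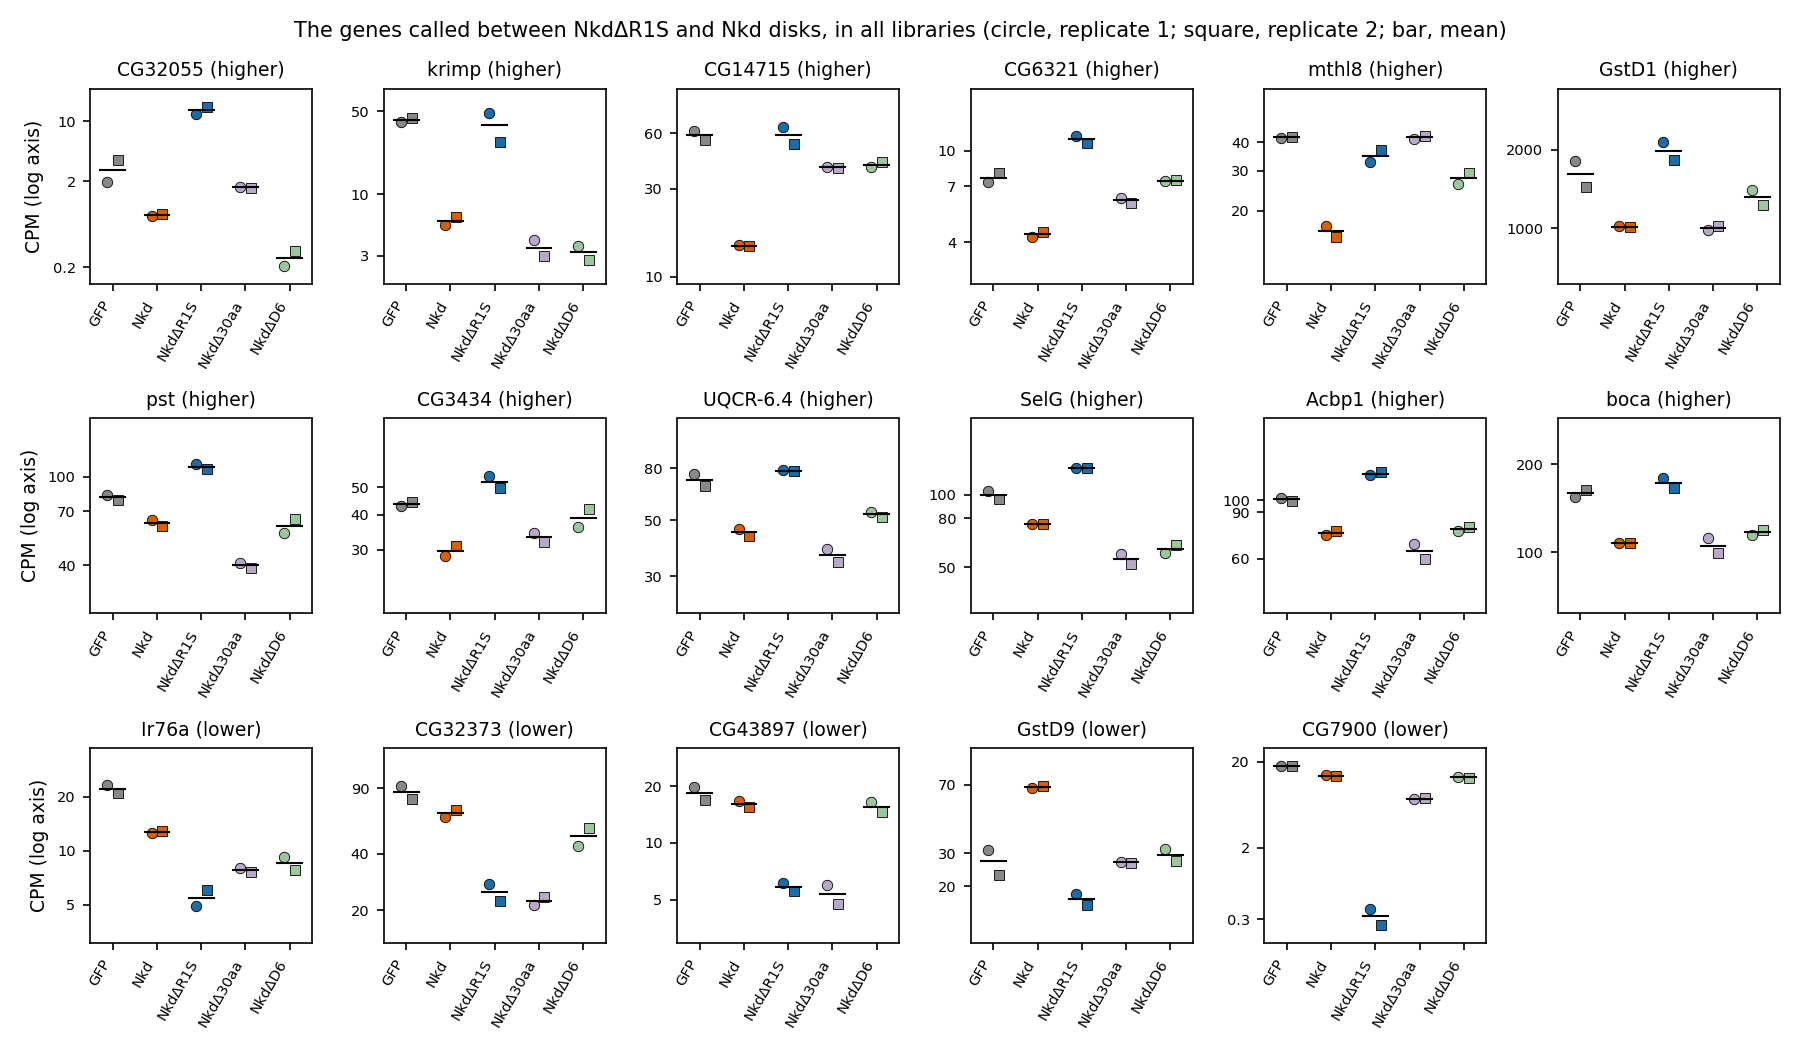
TMM-normalized level (CPM, log axes that differ between panels) of the 17 called genes in all 10 libraries, with circles for replicate 1, squares for replicate 2 and bars for group means. The NkdΔR1S (blue) and Nkd (orange) libraries do not overlap in any panel. CG7900 and CG32055 stand out by their NkdΔR1S libraries, CG14715 and mthl8 by their Nkd libraries.

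Set against the remaining 8 libraries of the series, 7 of the 12 higher genes had the NkdΔR1S libraries outside the range of all others (CG32055, SelG, pst, Acbp1, UQCR-6.4, boca and GstD1). For 2 genes the Nkd libraries lay outside (CG14715 and mthl8), for 2 genes both groups did (CG6321 and CG3434), and for krimp neither did. Of the 5 lower genes, CG7900 and Ir76a had the NkdΔR1S libraries outside the range and GstD9 had both groups outside. Libraries of the compared groups did not overlap for 4009 of the 9264 genes (43.3%), so separation alone was common in these data. The share of all genes with a group outside every other library was not counted. The genes were also called on the difference between these same libraries, so the counts only describe them.

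Fewer than 10 genes were called lower, and the next genes by p-value with a fold change over 1.5, at least 5 CPM and separate groups are given, which edgeR did not call. DESeq2 on the 4 libraries called Ifrd1 (adjusted p = 6.56e-05), NaPi-III (3.98e-05), mon2 (0.00495) and Mocs1 (0.0247) but not CG46385 (0.0868), and edgeR with gene length offsets called Ifrd1 (0.0299) and mon2 (0.00599). Ifrd1 had 79.2 and 80.1 CPM in NkdΔR1S disks and 143 and 123 CPM in Nkd disks (log2 fold change -0.74, SE 0.11, edgeR adjusted p = 0.0519). NaPi-III, a phosphate transporter gene, had 66.3 and 64.1 CPM against 110 and 135 CPM (-0.91, SE 0.15, adjusted p = 0.0621), with 31.3 and 27.97 CPM in GFP disks. Its level in NkdΔR1S disks was thus between those of GFP and Nkd disks. The same held for NkdΔ30aa (83.2 and 78.4 CPM) and NkdΔD6 disks (58.5 and 44.7 CPM). The trafficking gene mon2 was also between GFP and Nkd in NkdΔR1S disks, with 31.7 and 40.3 CPM in NkdΔR1S, 61.2 and 74.9 CPM in Nkd and 24.0 and 26.6 CPM in GFP disks (-0.92, SE 0.15, adjusted p = 0.0621). NkdΔ30aa disks held 66.7 and 62.2 CPM of mon2 and NkdΔD6 disks 57.1 and 50.6 CPM. Mocs1, a gene of molybdenum cofactor synthesis, had 10.7 and 11.4 CPM against 19.5 and 22.4 CPM (-0.92, SE 0.15, adjusted p = 0.0621), and CG46385 had 11.1 and 14.0 CPM against 22.3 and 21.2 CPM (-0.79, SE 0.14, adjusted p = 0.0653).

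The sodium channel family gene ppk13 was counted almost only in Nkd disks, at 7.69 and 7.12 CPM. It had 301 counts over the Nkd libraries, 1 count over the NkdΔR1S libraries and 1 count over the other 6 libraries. The ratio of Nkd to NkdΔR1S, scaled to library size, was 276, with an exact 95% interval of 49.1 to 10927 that covers counting error only. The gene was not called by edgeR (adjusted p = 0.0621) but was by DESeq2 on the 4 libraries (adjusted p = 3.54e-05).

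None of the 36 tested genes between the Wg ligand and the nucleus was called by edgeR in either direction. At an unadjusted p under 0.05 with the fold change, or by DESeq2 on the 4 libraries, 1 of them was lower, which was nkd. Of all genes, 1.37% and 0.352% were lower by these criteria. The median log2 fold change of the list was -0.10, against 0.0 for all genes tested, and 11 of 36 were positive against 4631 of 9264. The median was -0.0085 without NkdΔR1S replicate 1, -0.28 without NkdΔR1S replicate 2, -0.18 without Nkd replicate 1 and -0.016 when gene length offsets were used. Transcripts of wg, the ligand, were at 72.2 and 98.3 CPM in NkdΔR1S disks and at 94.1 and 90.2 CPM in Nkd disks (-0.11, SE 0.16, adjusted p = 0.795), with a positive value of 0.084 without NkdΔR1S replicate 1. Of the receptors, fz was at 155 and 156 CPM against 194 and 179 CPM (-0.27, SE 0.09, adjusted p = 0.208) and fz2 at 466 and 540 CPM against 609 and 594 CPM (-0.26, SE 0.11, adjusted p = 0.294). The co-receptor gene arr (arrow) was at 111 and 143 CPM against 169 and 171 CPM (-0.42, SE 0.14, adjusted p = 0.208). The NkdΔR1S libraries lay below the Nkd libraries without overlap for these 3 genes, as for 10 of the 36 in all, with 3 of the 36 separate in the other direction, against 19.2% and 24.0% of all genes. The groups overlapped for dsh, the binding partner of the deleted region, with 83.1 and 84.5 CPM against 87.5 and 81.1 CPM (-0.01, SE 0.08, adjusted p = 0.982), and for arm, which encodes the fly β-catenin, with 1376 and 1425 CPM against 1420 and 1476 CPM (-0.05, SE 0.08, adjusted p = 0.825), and both values turned positive with gene length offsets, to 0.071 and 0.059. The nuclear factor gene pan had 69.5 and 68.9 CPM against 102 and 91.5 CPM, again without overlap (-0.48, SE 0.14, adjusted p = 0.152). Genes were chosen here by their place in the pathway, after their values had been seen.

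The Wnt, Notch, Hippo and MAPK genes that the study singled out on these same samples are no independent evidence of a direction. Of these 32 genes none was called by edgeR between NkdΔR1S and Nkd, 6 had a positive log2 fold change, and the median was -0.17. It was -0.0066 without NkdΔR1S replicate 1, -0.40 without NkdΔR1S replicate 2, -0.31 without Nkd replicate 1, -0.059 without Nkd replicate 2 and -0.080 when gene length offsets were used. Of all genes, 3.35% were higher and 1.37% lower with unadjusted p under 0.05 and the fold change. DESeq2 on the 4 libraries called 1.14% higher and 0.352% lower. By each of these criteria, 1 of the 32 genes was higher and 1 lower, the same genes in both. The lower was nkd itself, the expressed gene. The higher was pen-2, a γ-secretase subunit gene, with 59.8 and 48.1 CPM in NkdΔR1S and 27.9 and 33.5 CPM in Nkd disks (0.81, SE 0.16, adjusted p = 0.0751), and 47.8% of its exon length is overlapped from the other strand. For Myc, a growth regulator, 52.7 and 62.0 CPM stood against 78.7 and 74.7 CPM (-0.42, SE 0.18, adjusted p = 0.304), with 40.9% of its exon length overlapped from the other strand. Apc2, of the complex that degrades Armadillo, was at 42.8 and 45.4 CPM against 59.0 and 57.2 CPM (-0.40, SE 0.15, adjusted p = 0.243). In the Fat branch of Hippo signaling, dachs was at 291 and 342 CPM against 406 and 403 CPM (-0.35, SE 0.11, adjusted p = 0.179) and lft (lowfat) at 252 and 217 CPM against 150 and 175 CPM (0.53, SE 0.18, adjusted p = 0.228). The groups overlapped for ft (fat) itself, with 111 and 126 CPM against 100 and 157 CPM (-0.12, SE 0.22, adjusted p = 0.858).

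No gene was called by edgeR in the lists of Notch (32 tested), Hippo (33), EGF receptor and MAP kinase (29), Dpp (24), Hedgehog (25) and planar cell polarity (17) genes. At an unadjusted p under 0.05 with the fold change, 1 Notch pathway gene was higher and 1 planar cell polarity gene lower, and DESeq2 on the 4 libraries called the Notch pathway gene only. The medians of these lists were between -0.12 and -0.01, but without NkdΔR1S replicate 1 those of the Notch, Hippo and EGF receptor lists turned positive (0.12, 0.088 and 0.0052), and with gene length offsets those of the Hippo, EGF receptor and Dpp lists did (0.019, 0.0070 and 0.019). Without Nkd replicate 2 the Hippo and EGF receptor medians were positive as well (0.047 and 0.0044). Among 70 wing and vein morphogenesis genes and 13 wing pouch genes, none was called either (with unadjusted p under 0.05 and the fold change, 1 and 0 higher, and 0 by DESeq2 within the 4 libraries), and both medians were -0.10. Without NkdΔR1S replicate 1 they were -0.00056 and 0.017, without NkdΔR1S replicate 2 -0.26 and -0.27, and without Nkd replicate 1 -0.16 and -0.18. Among 77 cell cycle genes the median was -0.17, with values of -0.11 without NkdΔR1S replicate 1 and -0.10 with offsets, 15 positive and 39 with libraries separate and lower in NkdΔR1S disks, against 19.2% of all genes, and none was called by any of these criteria.

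Genes of the translation and respiration machinery had mostly positive values. Of 86 cytoplasmic ribosomal protein genes tested, 81 were positive and 62 were separate and higher, against 24.0% of all genes. None was called by edgeR, while 8 were higher at an unadjusted p under 0.05 with the fold change and 5 by DESeq2 on the 4 libraries. Of all genes, 3.35% and 1.14% were higher by these criteria, which were also used for the other lists below. Their median was 0.35. RpL29 had 2832 and 2361 CPM in NkdΔR1S and 1511 and 1583 CPM in Nkd disks (0.75, SE 0.13, adjusted p = 0.0653), and RpL23 had 5120 and 4549 CPM against 3426 and 3336 CPM (0.52, SE 0.09, adjusted p = 0.0653). The GFP libraries were near the NkdΔR1S level for both, with 3244 and 2556 CPM of RpL29 and 4558 and 4462 CPM of RpL23. The median was 0.29 for 72 mitochondrial ribosomal protein genes (0 called by edgeR or DESeq2 on the 4 libraries, 3 higher at an unadjusted p under 0.05 with the fold change) and 0.24 for 59 genes of the respiratory chain and ATP synthase, of which edgeR called UQCR-6.4 alone (3 higher by DESeq2 on the 4 libraries, 6 higher with unadjusted p under 0.05 and the fold change). The 3 of 72 mitochondrial ribosomal genes at an unadjusted p under 0.05 were near the 3.35% share of all genes. Without NkdΔR1S replicate 1 the median of the cytoplasmic ribosomal list fell to 0.15, of the mitochondrial ribosomal list to 0.17 and of the respiratory chain list to 0.13, and without Nkd replicate 1 the mitochondrial ribosomal and respiratory chain medians were 0.17 and 0.15.

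These genes are short, and the measured differences varied with exon length over all genes. In the quartile of shortest exon length, 67 to 1227 bases, the median log2 fold change was 0.24, and in the quartile of longest, 3384 to 71820 bases, it was -0.10. Median exon length was 1107.5 bases for the genes called higher, 2109 for those called lower and 2020 for all. The libraries themselves differed in this respect, since exon length and the offset of a library from the average library had a rank correlation across genes of 0.00309 and 0.287 in the Nkd libraries and -0.426 and -0.0380 in the NkdΔR1S libraries. When each library's trend on length was removed with offsets, the medians became 0.06 for cytoplasmic ribosomal, -0.03 for mitochondrial ribosomal and 0.02 for respiratory chain genes, and those of the wing and vein and the cell cycle lists became -0.00 and -0.10. With these offsets 11 genes were higher and 10 lower, 12 of them shared with the 17, and SelG, Acbp1, UQCR-6.4, boca and CG43897 were no longer called, with adjusted p-values of 0.0910, 0.348, 0.235, 0.316 and 0.0704. The cause of the length trend was not tested.

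**Figure D4:**
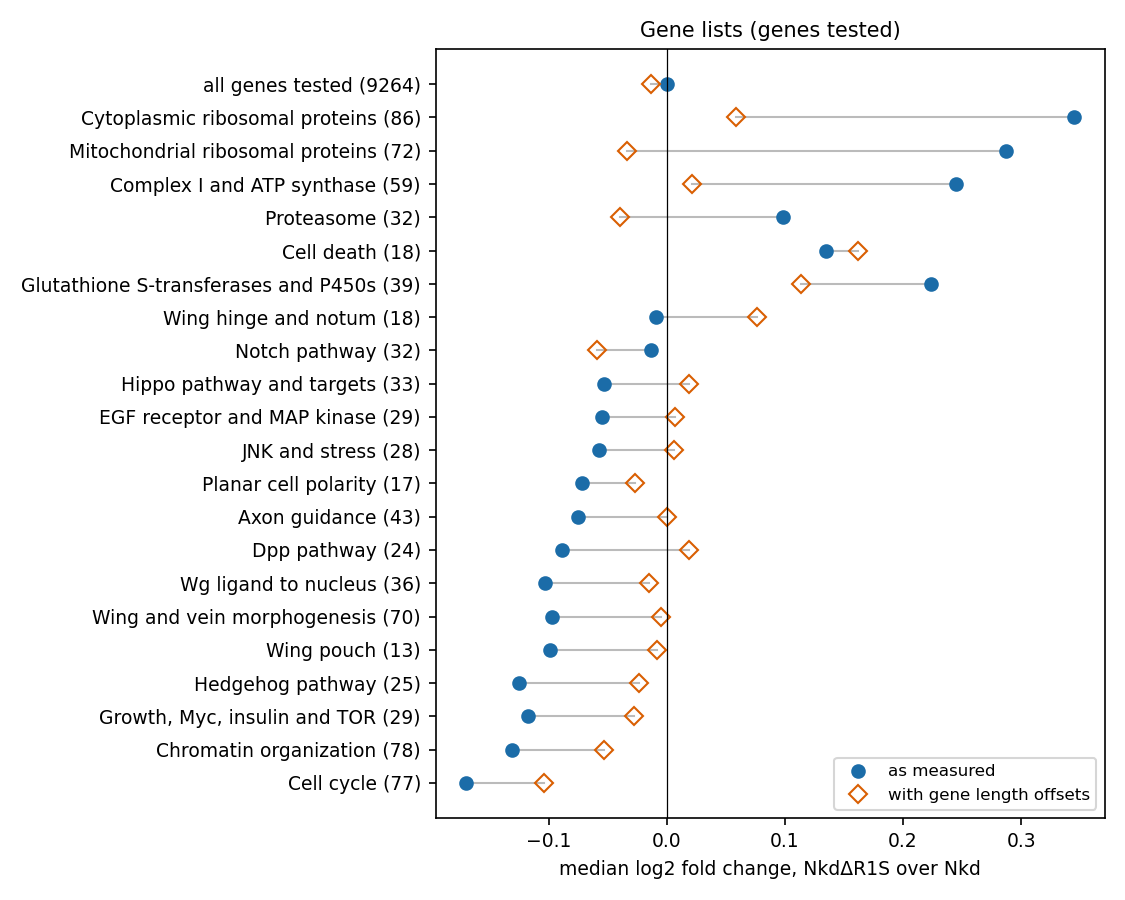
Median log2 fold change between NkdΔR1S and Nkd disks of each gene list, with the number of genes tested in brackets, as measured (filled circles) and after each library's trend on exon length was removed (open diamonds). The ribosomal protein and respiratory chain lists move from 0.35, 0.29 and 0.24 to 0.06, -0.03 and 0.02, and the signaling lists lie close to 0 in both.

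The called gene CG6321 lies on chromosome 3L at 11059437 to 11061224, and the genes around it were examined after its values had been seen. Of 24 further genes tested within 100 kb, 6 passed an unadjusted p under 0.05 with a fold change over 1.5, a share to be read against 4.72% of all genes, and around the other called genes there were 0 to 5. edgeR called none of the 6, while DESeq2 on the 4 libraries called NaPi-III (adjusted p = 3.98e-05), CG32073 (0.00850), Mocs1 (0.0247) and CG32069 (0.0252). CG7888 and CG32069 were higher in NkdΔR1S disks by this criterion, and Mocs1, CG32071, CG32073 and NaPi-III were lower. CG32069 had 41.7 and 38.04 CPM in NkdΔR1S disks and 21.9 and 25.1 CPM in Nkd disks, with 23.9% of its exon length overlapped from the other strand. The levels of CG7888, CG32071 and CG32073 were under 5 CPM in all 4 libraries. CG32073 had 100 counts in Nkd replicate 1, the library with the salivary gland transcripts, 8 in Nkd replicate 2 and none in the NkdΔR1S libraries. The directions were mixed, with genes between them that did not pass.

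**Figure D5:**
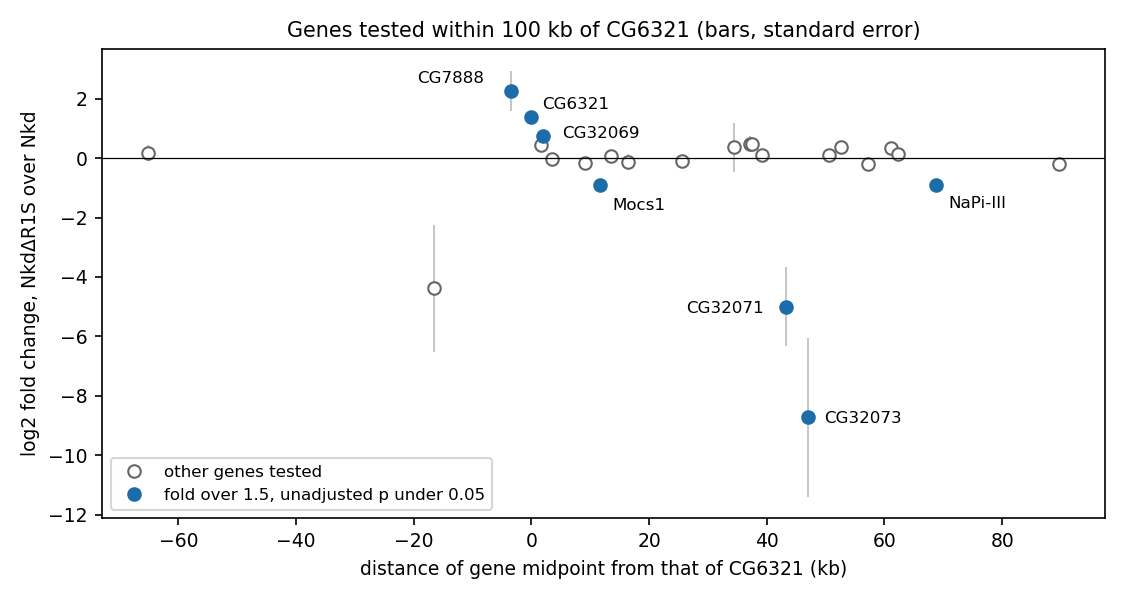
Log2 fold change between NkdΔR1S and Nkd disks of the 25 genes tested within 100 kb of CG6321, by the distance of their midpoints from that of CG6321 in kb, with bars for the standard error. Filled points passed an unadjusted p under 0.05 with a fold change over 1.5, 3 of them higher and 4 lower.

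Beside the direct comparison, the fits against shared controls are given as counts. NkdΔR1S disks differed from GFP disks in 5 genes higher and 11 lower, and Nkd disks from GFP disks in 283 higher and 418 lower (edgeR, the same thresholds). Against NkdΔ30aa disks, NkdΔR1S disks had 689 genes higher and 1147 lower, and against NkdΔD6 disks 41 higher and 19 lower. These comparisons share libraries with each other and with the one described here, so their counts are not independent.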

How the data were processed

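The values deposited by the authors are raw counts per gene. Per the labels, HISAT2 2.2.1 and featureCounts were used with the build BDGP6, the version of the latter and its strand setting not given in the sources used here. Of 17807 gene IDs, 17710 had a symbol and 61 more took one from an annotated gene of identical span. There were 0 per-sample columns from outside the series. The compared libraries held 18695697 to 19260364 counts.

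The main test was the robust quasi-likelihood F test of edgeR 4.0.16 in R 4.3.3, after TMM normalization and filterByExpr by group, with p-values adjusted by Benjamini-Hochberg over all genes. All 10 libraries entered 1 model with group as its factor, which left 5 residual degrees of freedom. The common dispersion had a square root of 0.291. Each SE is the absolute log2 fold change over the square root of its F. CPM values use the effective library sizes of this model, and CPM of untested genes are on the same scale. The thresholds are those of the study, which compared every form with GFP by DESeq2 but not the forms with each other.

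The comparison and the gene lists were chosen with earlier results of these data known. Named are nkd, genes of the study's table of Wnt, Notch, Hippo and MAPK genes, wg, dsh and Bx, up to 10 genes a direction by fold change (or, where fewer were called, by p-value), list members with the smallest p, and genes present in 1 group only (under 0.2 CPM against at least 5). All 17 called genes are given, and further pathway genes and neighbours were named after their values had been seen.

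Other settings tried were the RLE normalization, dropping the filter, DESeq2 1.42.0 on all or 4 libraries, edgeR on 4 libraries, a block for the replicate number, gene length offsets (lowess with a span of 0.3 and a prior count of 2), the salivary gland list left out, other thresholds and leaving out each of the 4 compared libraries in turn. In these last fits the lone library of a group is assumed to vary like those of the others. The code was tested on simulated data of lower dispersion than these, without differences between libraries in length trend or in transcripts of other tissues. This was a check that set fold changes were returned, not of error rates in these data.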

Additional observations from a re-analysis of the deposited data

How the results depend on the processing

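Of the 12 genes higher and 5 lower, counts rose to 33 and 14 with no filter on low counts, to 175 and 80 with DESeq2 on all libraries, to 100 and 31 with DESeq2 on the 4 libraries and to 310 and 127 at an unadjusted p under 0.05. They were 0 and 0 with edgeR on the 4 libraries (205 and 96 at an unadjusted p under 0.05 with the fold change). A fold change over 2 left 5 higher and 5 lower, and gene length offsets gave 11 and 10. Leaving out a library gave 1 to 26 higher and 2 to 6 lower. The log2 fold change of nkd was -1.47 and called with DESeq2 (adjusted p = 0.00773 on all libraries and 3.20e-09 on the 4), and -1.80 to -1.20 and not called when a library was left out. The cause of the difference between tools was not tested. The values of dsh (0.071) and arm (0.059) changed sign with gene length offsets, and that of wg did so without NkdΔR1S replicate 1 (-0.40 to 0.084 over the libraries left out), and none of these was called. The deviations of same-numbered libraries correlated at 0.374 between Nkd and NkdΔR1S but at -0.223 to 0.261 between other groups, so not all groups passed the 0.1 needed to treat the numbers as pairs. With the replicate block 8 genes were higher and 4 lower, and nkd was at -1.47. Acbp1 (adjusted p = 0.0543), boca, CG3434, CG6321 and Ir76a (each 0.0838) were then no longer called. With the GFP libraries left out of the fit, which was chosen after seeing the data, 9 were higher and 4 lower.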

Other observations

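Further gene groups are given as values. At an unadjusted p under 0.05 with the fold change, 3.35% of all genes were higher and 1.37% lower in edgeR. DESeq2 on the 4 libraries called 1.14% higher and 0.352% lower. None of 30 ecdysone response genes tested was called by edgeR or by DESeq2 on the 4 libraries, and 1 was lower at an unadjusted p under 0.05 with the fold change. EcR, the ecdysone receptor gene, had 94.7 and 98.3 CPM in NkdΔR1S disks and 125 and 126 CPM in Nkd disks (log2 fold change -0.38, SE 0.10, edgeR adjusted p = 0.136). Among 34 cuticle and chitin genes none was called by edgeR (2 higher and 3 lower at an unadjusted p under 0.05 with the fold change, 1 higher by DESeq2 on the 4 libraries). The chitinase gene Cht5 had 41.9 and 49.5 CPM against 29.3 and 26.3 CPM (0.72, SE 0.18, adjusted p = 0.133), and the chitin deacetylase gene Cda4 had 162 and 145 CPM against 219 and 212 CPM (-0.49, SE 0.11, adjusted p = 0.115).

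The 22 heat shock and chaperone genes tested had a median log2 fold change of -0.72, which was 0.042 without Nkd replicate 1, -1.44 without Nkd replicate 2 and -0.38 without NkdΔR1S replicate 1. None was called by edgeR or by DESeq2 on the 4 libraries, and 5 were lower at an unadjusted p under 0.05 with the fold change, against 1.37% of all genes. Hsp70Bb, an inducible heat shock gene with near-identical copies, had 20.8 and 36.8 CPM in NkdΔR1S disks and 270 and 69.6 CPM in Nkd disks (-2.56, SE 0.66, edgeR adjusted p = 0.167). Its log2 fold change was -1.31 without Nkd replicate 1 and -3.25 without Nkd replicate 2, where edgeR called it (adjusted p = 0.0410), and DESeq2 called it on all libraries (0.00456) but not on the 4 (0.130).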
